A study of Mus musculus with 14 samples.

Results

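The vitamin C difference in reprogramming fibroblasts was measured at the end of a time course, on days 8 and 10. The cells were primary mouse embryonic fibroblasts (MEFs), infected with retroviruses that encode the transcription factors Sox2, Klf4 and Oct4, abbreviated SKO. Oct4 is the product of Pou5f1. The treated group was SKO cells kept with 50 µg/ml vitamin C from day 2 after the second infection, and the untreated group was SKO cells kept without it. Both groups shared the 3 viruses and an embryonic stem cell medium with serum and leukaemia inhibitory factor. On day 8 the treated cells had had vitamin C for 6 days, and on day 10 for 8 days. Arrays were chosen by their titles, as the SKO arrays of days 8 and 10 with and without vitamin C, which gave 4 of the 14 arrays of the series, 2 a side. Each vitamin C array was set against the untreated array of its day. The sources used here do not name the mouse strain or the number of cultures, and the arrays' probes for the 3 factors may also detect viral transcripts.

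Fibroblasts become pluripotent stem cells when the 3 factors silence the fibroblast programme and switch on the cells' own network of stem cell genes, in which Nanog is a late member. Vitamin C keeps iron in its reduced form for dioxygenases, a family of enzymes that hydroxylates collagen and removes methyl groups from histones and DNA. Interferon-stimulated genes encode proteins against viruses and other intracellular microbes. They are switched on through interferon receptors, and many carry a response element with repeats of the bases GAAA in the promoter.

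The labelled cell type was checked against 7 fibroblast markers, among them Thy1, Col1a1 and Vim, whose log2 signals lay between 8.30 and 12.3 on the treated arrays and between 8.28 and 12.7 on the untreated ones. The medians of the 4 arrays lay between 5.21 and 5.27 on the log2 scale, and the interquartile range was widest on the treated array of day 8 (3.33, against 3.16 in its untreated partner). A swing between days was scored on 500 genes that go up and down by turns on days 3 to 6. It was uneven on day 6, with 0.46 in treated and 0.13 in untreated cells, and also on day 8. The day 6 pair enters the spread used in the tests. The score was 0.08 in treated and 0.47 in untreated cells on day 8, and -0.46 in treated and -0.45 in untreated cells on day 10. The treated day 8 array also correlated as well with the untreated array of day 10 (Pearson r = 0.294 across genes, after removing each arm's mean) as with its own partner (r = 0.276). The part of these differences in the results of day 8 was not tested beyond the values given below for day 10 alone and with the score as a covariate.

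Vitamin C raised 143 genes and lowered 49 of the 19938 genes tested on days 8 and 10 (limma, Benjamini-Hochberg adjusted p under 0.05), which is 0.717% and 0.246% of all genes. Those that rose included 22 of 67 measured genes of the interferon lists, 4 of 16 complement genes and the stem cell genes Nanog, Gdf3, Fbxo15 and L1td1. The largest falls were those of Gpr50, Csn1s1 and Tslp. Differences among the higher genes went from 1.66-fold to 9.24-fold, with 98 of them at least 2-fold, and among the lower genes from 1.69-fold to 7.86-fold, with 28 at least 2-fold. Each of the 192 genes had the same direction on both days. Both treated arrays lay above both untreated ones in 143 of the 143 higher genes, against 16.1% of all genes. Both treated arrays lay below both untreated ones in 46 of the 49 lower genes, against 17.3% of all genes. Since the genes were called on the same 4 arrays, these counts describe them and nothing is read from the comparison with all genes. The exceptions were Fbln5, Zyx and Nat8l, which are named here after their values were seen. In each of these 3 genes the treated cells of day 8 stood above the untreated cells of day 10. Each condition and day has 1 array, so the spread in these tests is how much the difference varied from day to day within 1 time course. How far independent cultures would vary is outside what the p-values measure. In bulk RNA, more RNA per cell and more cells of a kind cannot be told apart.

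**Figure D1:**
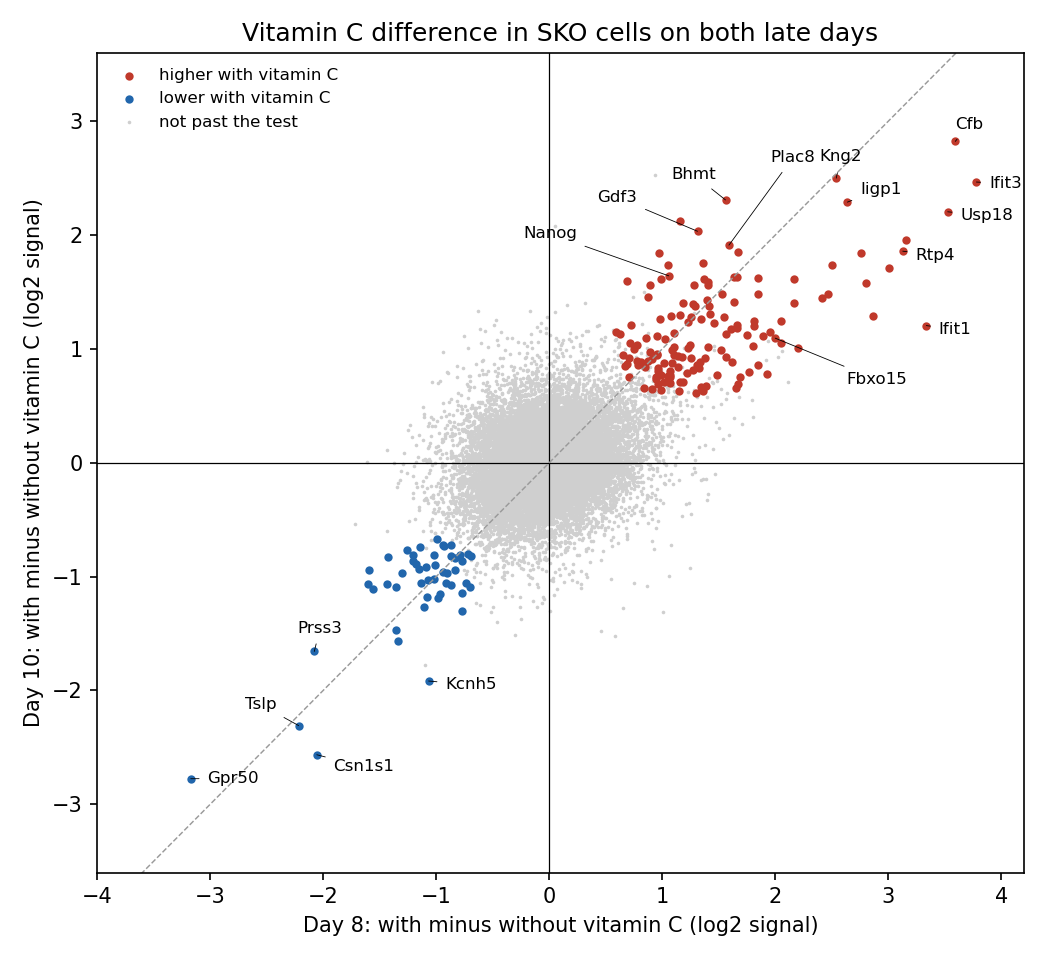
Each point is 1 gene, with its vitamin C difference (treated minus untreated, log2 signal) on day 8 along the x axis and on day 10 along the y axis. The 143 higher genes (red) lie at the upper right and the 49 lower genes (blue) in the lower left, and the dashed line marks equal differences on both days.

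The 2 days can be set against each other, since each has its own pair of arrays. From day 8 alone, with day 10 left out of the fit, 36 genes were higher (0.181% of all) and 6 lower (0.0301%). Of the 36, 35 were also higher on day 10, with a median difference of 1.30 there, against 1.87 on day 8 and a median of 0.00 over all genes on day 10. The exception was Cd3g, a T cell receptor subunit gene named here after its values were seen, which stood at 1.39 on day 8 and -0.14 on day 10. All 6 lower genes were lower on day 10 too, with medians of -1.83 on day 8 and -1.36 on day 10. From day 10 alone 8 genes were higher (0.0401%) and 3 lower (0.015%), and all 11 had the same direction on day 8. These 8 genes had median differences of 2.10 on day 8 and 2.21 on day 10. Over all genes the differences of the 2 days correlated weakly (r = 0.319 across genes, which are not independent), and 57.4% of genes had the same sign on both days.

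Of the 39 gene lists examined, that of antiviral effectors held the most higher genes. Across 3 lists (sensing and signalling, antiviral effectors, and interferon-induced GTPases) 22 of 67 measured genes were higher and 0 lower. Over all genes 0.717% were higher and 0.246% lower. The median difference of the 67 genes was 0.99, against -0.02 over all genes. Among 37 effectors 13 were higher (median 1.06), among 7 GTPases 5 (median 1.48), and among 23 sensing genes 4 (median 0.17). From day 8 alone 9 of the 67 passed, and from day 10 alone 2 of them, Ifit3 and Iigp1. Of the 37 effectors 36 were above 0 on both days, and the exception, named after its values were seen, was Ifit2 (1.27 on day 8 and -0.10 on day 10).

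Promoters of 3 higher interferon genes that hold the response element are printed to show it, although not every gene of the lists had a match in its window. Each is the stretch of 300 bases from 250 before to 50 after the annotated start, from RefSeq on build GRCm38.p6, plus strand: chr19:34583279-34583578 (Ifit3), chr8:61927837-61928136 (Ddx60) and chr3:142559794-142560093 (Gbp3). Capitals mark 2 copies of GAAA separated by 2 bases of any kind, or the same on the other strand, where it reads TTTC.
Ifit3: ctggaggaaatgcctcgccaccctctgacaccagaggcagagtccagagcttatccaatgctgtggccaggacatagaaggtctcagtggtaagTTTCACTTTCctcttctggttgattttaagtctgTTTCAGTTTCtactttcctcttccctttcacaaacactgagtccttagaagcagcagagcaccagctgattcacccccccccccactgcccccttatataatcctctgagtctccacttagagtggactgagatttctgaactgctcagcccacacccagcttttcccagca
Ddx60: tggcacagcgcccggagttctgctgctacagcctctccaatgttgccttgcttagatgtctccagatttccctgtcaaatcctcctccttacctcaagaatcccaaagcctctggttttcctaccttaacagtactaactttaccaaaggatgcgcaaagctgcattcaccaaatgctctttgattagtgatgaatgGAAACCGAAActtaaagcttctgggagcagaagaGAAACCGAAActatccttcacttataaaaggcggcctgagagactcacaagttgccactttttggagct
Gbp3: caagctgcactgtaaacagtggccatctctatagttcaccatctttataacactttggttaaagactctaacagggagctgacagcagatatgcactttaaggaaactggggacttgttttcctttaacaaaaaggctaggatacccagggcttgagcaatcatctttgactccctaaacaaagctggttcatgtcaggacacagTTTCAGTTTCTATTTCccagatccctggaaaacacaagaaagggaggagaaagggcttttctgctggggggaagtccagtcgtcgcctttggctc
Each of the 3 windows held 2 such matches. They began 156 and 122 bases before the start in Ifit3, 53 and 19 bases before it in Ddx60, and 45 and 39 bases before it, overlapping, in Gbp3. A match was found in 8 of the 13 higher interferon genes that have a listed window (61.5%), and in 605 of the 15563 genes with a window in all (3.89%). Over the whole lists it was found in 11 of 28 effectors (39.3%), 5 of 19 sensing genes (26.3%) and 4 of 4 GTPases with a window. Among the higher genes outside the 3 lists it was found in 11 of 93 (11.8%), and among the lower genes in 1 of 39 (2.56%). The 11 include Ifit3b and Oas1c, of the same families as the listed genes Ifit3 and Oas1a. That share is therefore not one of genes apart from the interferon families. These shares describe letters in a window and show no binding.

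Ifit3, an interferon-induced antiviral protein, had log2 signals of 8.19 on day 8 and 8.29 on day 10 in treated cells, against 4.41 and 5.82 in untreated cells. The treated arrays were high on both days, and the untreated one was higher on day 10 than on day 8. The difference was 3.12 ± 0.28 (SE; 8.72-fold, adjusted p = 0.001). Usp18, which removes the ubiquitin-like modifier Isg15 from proteins and restrains interferon receptor signalling, stood at 8.09 and 8.21 in treated cells, against 4.57 and 6.01 in untreated cells (7.29-fold, adjusted p = 0.00342). Ddx60, a helicase of antiviral sensing, had 6.12 and 6.70 in treated cells, against 2.96 and 4.75 in untreated cells (5.90-fold, adjusted p = 0.00342). Its untreated signal of day 8 lay near the bottom of the range. In all 3 genes the groups did not overlap and the gap was wider on day 8.

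Iigp1, an interferon-induced GTPase that acts on vacuoles holding microbes, had signals of 5.81 and 6.17 in treated cells. In untreated cells it had 3.17 and 3.88, which is low in the range. Its difference of 2.46 ± 0.17 (5.52-fold, adjusted p = 0.0002) was close to equal on both days, at 2.64 and 2.29. Among the guanylate-binding GTPases, Gbp3 was 4.22-fold higher, Gbp9 3.33-fold and Gbp7 2.71-fold. Signal from closely related genes may be shared between their probes, which holds for the Gbp family and for Ifit3 and its close copy Ifit3b (5.12-fold higher).

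Other effectors among the 12 genes with the largest rises were Rtp4 (5.63-fold), Sp100, a nuclear body protein (4.93-fold), Ifit1, which binds viral RNA (4.83-fold), and the oligoadenylate synthetase family members Oasl2 (4.57-fold) and Oas2 (4.35-fold). These came closer to the threshold, with adjusted p between 0.00577 and 0.0486. Of the sensing genes, Dhx58, a cytoplasmic RNA sensor, was 3.13-fold higher, Irf7, a transcription factor that amplifies interferon production, 2.87-fold, and Zbp1, a sensor of unusual nucleic acid structures, 2.55-fold. Irf7 stood at 8.05 and 8.08 in treated cells, against 6.41 and 6.66 in untreated cells. Ifnb1, which encodes interferon beta itself, did not pass. It had 3.54 and 4.15 in treated cells, against 4.48 and 3.69 in untreated cells, near the bottom of the signal range, so its difference was -0.93 on day 8 and 0.46 on day 10.

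The interferon lists were followed through the whole SKO time course. The median difference of the 67 genes was 0.11 on day 3 and 0.23 on day 4. It reached 0.55 by day 5 and 0.91 by day 6, peaked at 1.24 on day 8 and stood at 0.65 on day 10. The share of the 67 that stood above 0 followed the same order up to day 8, with 44 genes on day 3 and 50 on day 4, then 57 (day 5), 59 (day 6) and 62 (day 8), and it was 59 on day 10. Over all genes the differences were also widest on day 8, with a standard deviation of 0.39. It was 0.33 on day 10 and at most 0.34 on days 3 to 6. In untreated cells the mean signal of the 37 effectors was itself lower on day 8 (5.77) than on day 10 (6.38). In treated cells this mean was 7.26 on day 8 and 7.27 on day 10. Macrophages, which express many of these genes, were represented by 23 markers, of which 0 were higher and 0 lower. Against 0.717% higher and 0.246% lower over all genes, a count of 0 among 23 says nothing about the markers. Their median difference was 0.09, with mean signals of 5.06 and 5.53 in treated cells, against 4.85 and 5.57 in untreated cells. Whether macrophages had a part in the interferon difference was not tested.

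**Figure D2:**
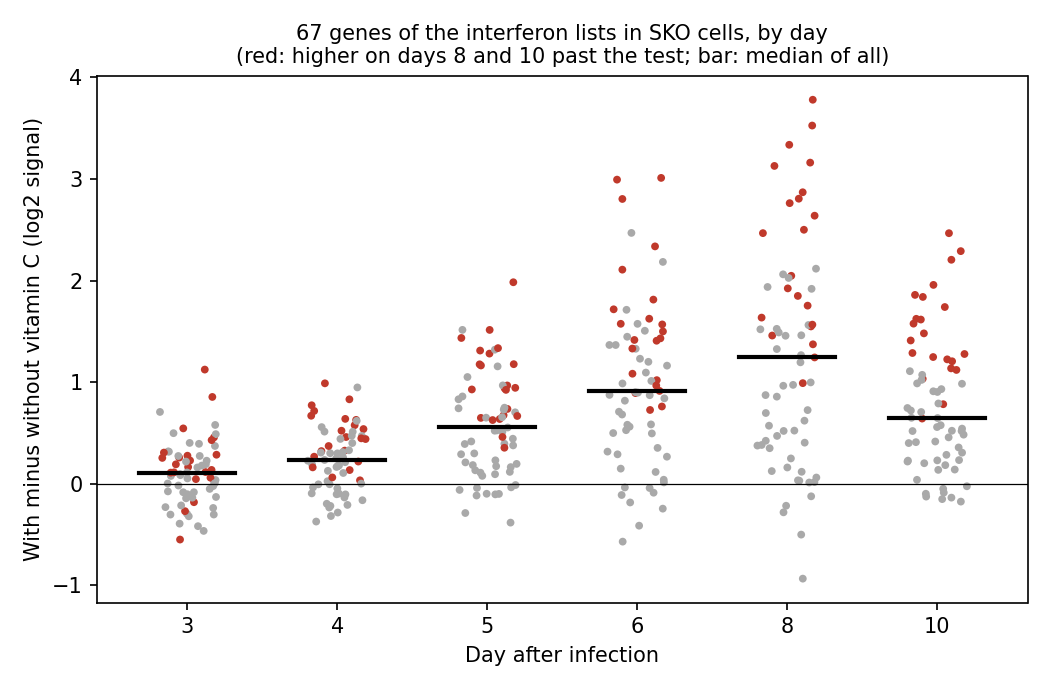
Points are the 67 genes of the 3 interferon lists, with the vitamin C difference (treated minus untreated, log2 signal) on the y axis and the day after infection on the x axis. The medians (bars) are 0.11 on day 3 and 1.24 on day 8, and the 22 genes that passed on days 8 and 10 (red) lie mostly above the rest from day 5 on.

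Complement genes and other genes of innate defence were also higher. Cfb, which encodes factor B of the alternative complement pathway, showed the largest rise among all genes. Its signals were 8.94 and 9.40 in treated cells, against 5.35 and 6.58 in untreated cells, so both treated arrays were far above both untreated ones (3.21 ± 0.26, SE; 9.24-fold, adjusted p = 0.000545). C4b, C1s1 and C2, which encode components of the classical pathway, were 2.95-fold, 2.12-fold and 1.87-fold higher. In all 4 of 16 complement genes were higher and 0 lower, with a median of 0.24, and 8 of the 16 were above 0 on both days. Of 25 chemokine and related genes 1 was higher, Ccl8, a monocyte attractant (3.70-fold), and the list's median was 0.06. Of 15 genes of MHC class I presentation 1 was higher, H2-T24 (3.44-fold), although 13 of the 15 were above 0 on both days (median 0.41). Over all 19938 genes, 0.717% were higher and 0.246% lower, and 5373 were above 0 on both days. A count of 1 therefore says little about the chemokine or the MHC list.

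Kng2, a kininogen gene whose product gives rise to bradykinin, had nearly the same difference on both days. It had 7.93 and 8.75 in treated cells, against 5.39 and 6.25 in untreated cells, which is a difference of 2.54 on day 8 and 2.50 on day 10 (2.52 ± 0.17, SE; 5.74-fold, adjusted p = 0.0002). It had also passed on days 4 to 6, with 1.85. As3mt, an arsenic methyltransferase gene, was 2.37-fold higher on days 8 and 10 and had been 2.83-fold higher on days 4 to 6.

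Of the pluripotency genes a few were higher and most were not past the test. Among 26 transcription factors of pluripotency 1 was higher, Nanog, and among 26 other stem cell markers 3 were higher, Gdf3, Fbxo15 and L1td1, with 0 lower in either list. The medians were 0.06 and 0.16. Over all genes 0.717% were higher and 0.246% lower, so 1 of 26 says little about the list of transcription factors. Nanog had 6.49 and 7.35 in treated cells, against 5.43 and 5.70 in untreated cells (1.35 ± 0.18, SE; 2.55-fold, adjusted p = 0.00856). The treated signals stood above both untreated ones, and the gap was wider on day 10 (1.64) than on day 8 (1.06). On days 3 to 6 its daily differences had been between 0.09 and 0.54.

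Gdf3, a growth factor of stem cells, had 6.85 and 7.11 in treated cells, against 5.54 and 5.08 in untreated cells (3.19-fold, adjusted p = 0.00825). Fbxo15, an F-box gene used as a reporter of reprogramming, had 6.98 and 7.67 in treated cells, against 4.98 and 6.58 in untreated cells (2.92-fold, adjusted p = 0.015). Its untreated signal was thus higher on day 10 than on day 8, and the groups did not overlap. L1td1, an RNA-binding protein gene of stem cells, was 1.72-fold higher (adjusted p = 0.0438). From day 8 alone 1 of these 4 genes, Fbxo15, passed and from day 10 alone 0 of them.

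Tfcp2l1, a transcription factor of naive pluripotency, stood at 0.87 ± 0.18 (adjusted p = 0.0562), after 1.34 on days 4 to 6, where it had passed. Zfp42, a zinc finger gene of stem cells also called Rex1, had likewise passed on days 4 to 6, with 0.77 (1.70-fold, adjusted p = 0.0475). On days 8 and 10 the stem cell genes Esrrb, Sall4 and Zfp42 stood at 0.09, 0.11 and 0.06. Their log2 signals lay between 3.90 and 5.32 on the 4 arrays. Of the transduced factors none passed. Pou5f1 had 12.4 and 11.7 in treated cells, against 12.6 and 12.2 in untreated cells, the difference for Sox2 was 0.23 and that for Klf4 -0.20. Of 31 epithelial genes 0 were higher and 0 lower, which, against 0.717% and 0.246% over all genes, says nothing about the members. Epcam stood at 0.63 and Cdh1, which encodes E-cadherin, at 0.66 (adjusted p = 0.184 and 0.115), and the list's median was -0.13 on day 8 and 0.33 on day 10.

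**Figure D3:**
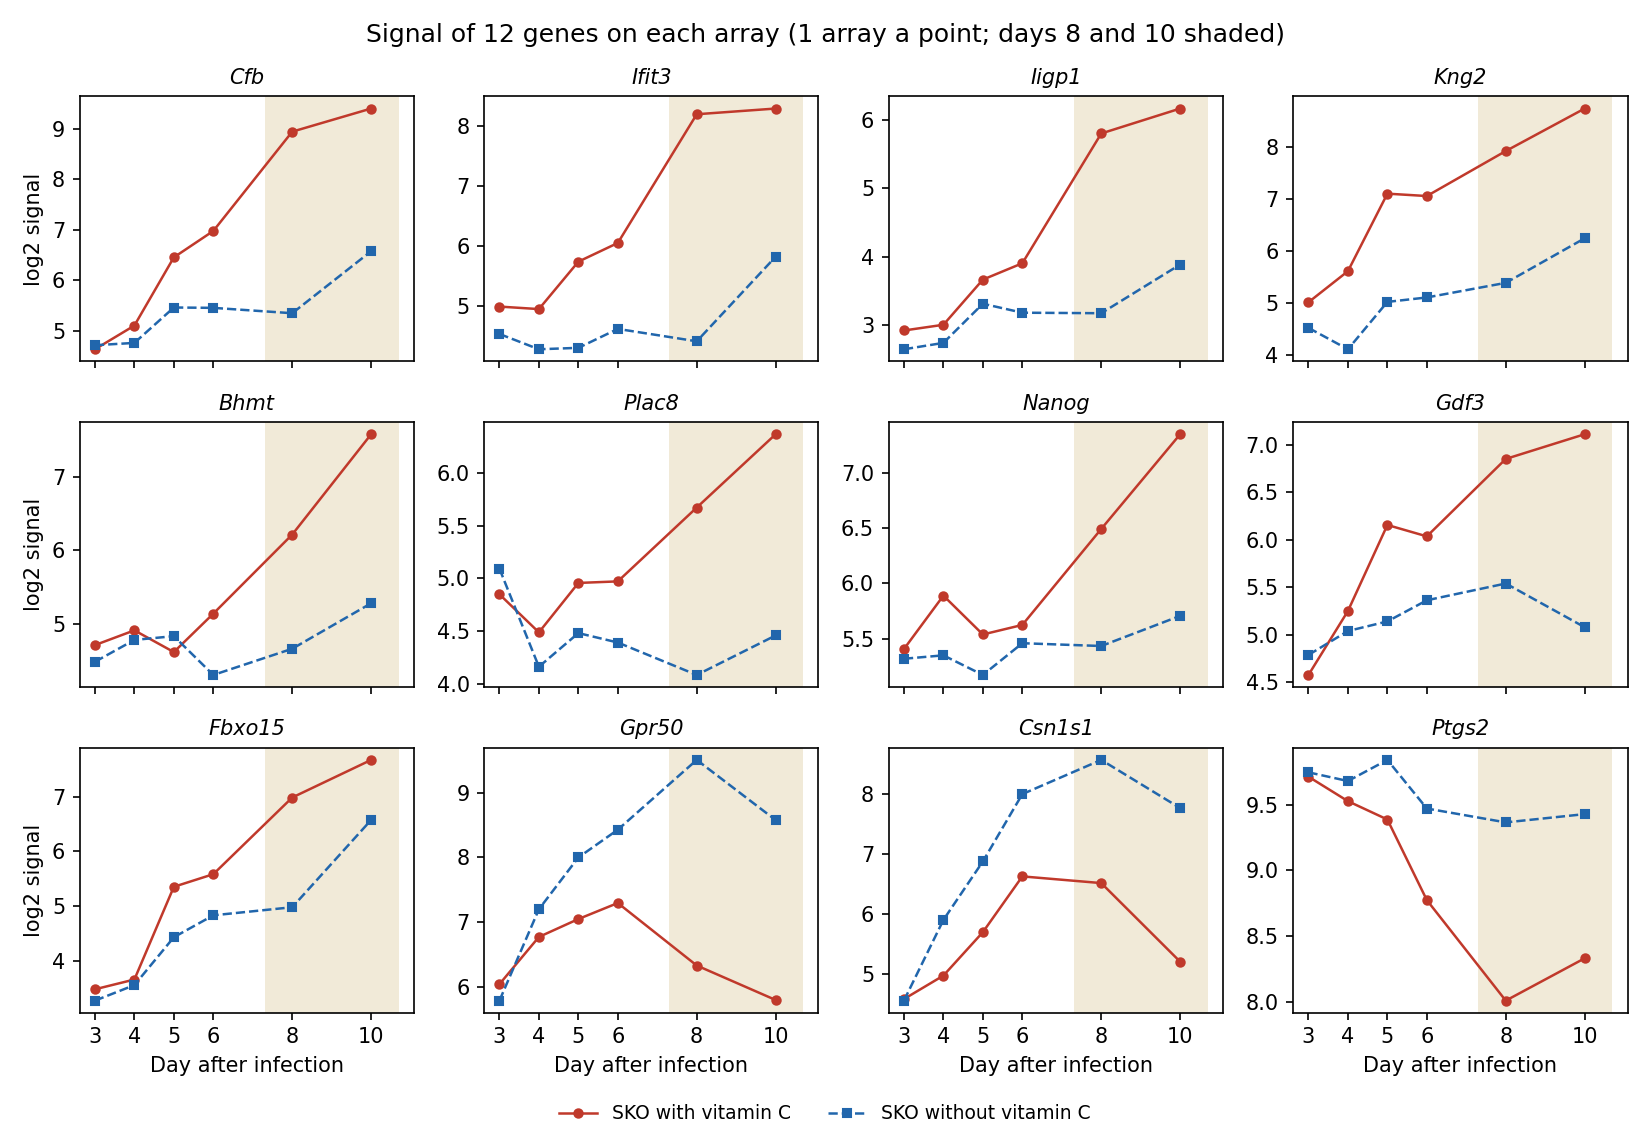
Log2 signal of 12 genes (y axes, which do not start at 0) on each SKO array by day after infection (x axis), with vitamin C (red circles) and without it (blue squares), 1 array a point. Cfb, Ifit3, Iigp1 and Kng2 stand higher with vitamin C from day 4 or earlier, most of all on days 8 and 10 (shaded). Nanog differs most on day 10 (1.64), and Gpr50, Csn1s1 and Ptgs2 stand lower with vitamin C from day 4 on.

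Genes that fell were led by Gpr50, an orphan receptor gene related to the melatonin receptors. It had 6.33 and 5.80 in treated cells, against 9.50 and 8.57 in untreated cells, and both treated arrays were far below both untreated ones (-2.97 ± 0.19, SE; 7.86-fold lower, adjusted p = 0.0002). Csn1s1, a milk casein gene, had 6.51 and 5.20 in treated cells, against 8.57 and 7.77 in untreated cells (4.96-fold lower, adjusted p = 0.000416). Tslp, a cytokine of epithelial and stromal cells, had 3.25 and 2.83 in treated cells, against 5.47 and 5.14 in untreated cells (4.80-fold lower). For Tslp and for Prss3, a trypsin gene (3.65-fold lower), the treated signals lay near the bottom of the range, where the deposited values compress differences.

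Ptgs2, the inducible prostaglandin synthase, had 8.01 and 8.33 in treated cells, against 9.36 and 9.43 in untreated cells (2.33-fold lower, adjusted p = 0.01). The other genes among the 12 largest falls were Kcnh5, a potassium channel gene (2.81-fold), Gpr165, an orphan receptor gene (2.73-fold), Slc24a3, a sodium-calcium exchanger gene (2.66-fold), Prrg3 and the protocadherin gene Pcdh10 (each 2.52-fold), Mamld1 (2.41-fold) and Stc1, which encodes the hormone stanniocalcin (2.38-fold). Pcdh10 and Ncam2 were the 2 lower members of 19 neural markers (0 higher, median -0.27). Rtl1, an imprinted gene derived from a retrotransposon, was the 1 lower member of 18 imprinted genes (1.96-fold). Over all genes 0.246% were lower, so 1 of 18 says little about the imprinted list. Among the lower genes seen in the full table, and named after their values were known, were the nuclear receptor genes Nr4a1 (1.79-fold) and Nr4a2 (2.13-fold), the growth factor gene Hbegf (2.06-fold), the axon guidance genes Sema3c (2.08-fold) and Sema3e (2.12-fold) and the matrix gene Tnc (1.89-fold).

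Some higher genes that belong to none of the lists are named here after their values were seen. Bhmt, which remethylates homocysteine with betaine, had 6.22 and 7.59 in treated cells, against 4.66 and 5.28 in untreated cells (3.82-fold, adjusted p = 0.00696). Its relative Bhmt2 was 2.55-fold higher, and Dmgdh, which acts on the product of the betaine reaction, was 2.93-fold higher. Kng1 (2.39-fold), the fetuin gene Ahsg (2.67-fold), the acute phase gene Saa3 (3.38-fold), the alcohol dehydrogenase gene Adh1 (2.32-fold) and the flavin monooxygenase genes Fmo1 (2.58-fold) and Fmo2 (2.67-fold) were also higher. Cebpa, a transcription factor of liver and fat, was 2.05-fold higher as the 1 member past the test of 14 adipocyte markers. Of 15 genes of serine and folate metabolism 1 was higher, Aldh1l1, a folate dehydrogenase gene (2.16-fold). Over all genes 0.717% were higher, so a count of 1 says little about the adipocyte or the serine and folate list.

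Further higher genes are again named after their values were known, except for Pramel27. Piwil2, of the piRNA pathway, was 2.20-fold higher and Morc1, which silences transposons in germ cells, 2.46-fold. Pramel27, of a gene family expressed in germ cells and early embryos, had 4.55 and 4.23 in treated cells, against 3.02 and 2.75 in untreated cells (2.84-fold). These signals lay near the bottom of the range. Its difference had changed sign before, from 1.27 on day 3 to between -0.73 and -0.38 on days 4 to 6. Plac8 (3.37-fold), Slfn2 (2.81-fold), Slfn5 (3.13-fold) and Gpnmb (2.80-fold) were further genes of this size.

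In the lists that follow, the counts stand beside 0.717% higher and 0.246% lower over all genes, so a count of 0 among 20 to 34 genes says nothing about the members. Of all 19938 genes, 5373 were above 0 on both days and 6062 below 0 on both. Of the listed enzymes that use vitamin C as a cofactor, none was past the test on these days. Of 20 genes of collagen hydroxylation and cross-linking 0 were higher and 0 lower, with a median of -0.21, and 12 were below 0 on both days. P4ha1, a subunit of the collagen prolyl hydroxylase, had 7.94 and 7.95 in treated cells, against 8.54 and 8.60 in untreated cells (-0.62 ± 0.17, SE; adjusted p = 0.14), and P4ha2 stood at -0.32. P4ha1 had passed on days 4 to 6, at -1.07. Of 27 dioxygenases of chromatin and nucleic acids 0 were higher and 0 lower, with Tet1 at 0.42, Tet2 at -0.17, Tet3 at -0.57 and Kdm2b at -0.07. The vitamin C transporters Slc23a1 and Slc23a2 stood at -0.25 and -0.27. Of 34 hypoxia targets 0 were higher and 0 lower, with a median of -0.14 and 18 below 0 on both days.

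Of 21 fibroblast surface and matrix markers 2 were higher, the small proteoglycan genes Lum (2.38-fold) and Ogn (1.98-fold), and 0 lower, with Thy1 at -0.58 and a median of 0.07. Of 20 collagens 0 were higher and 0 lower, with Col1a1 at -0.21. Of 32 DNA replication genes 0 passed, though 20 were above 0 on both days and 1 was below 0 on both (median 0.19). Of 31 mitosis genes 0 passed (median 0.10). Myc stood at -0.66 (adjusted p = 0.0948), Cdkn2a at -0.06, Cdkn2b at 0.13 and the imprinted gene Dlk1 at -0.49. Mmp13, a collagenase gene, was the 1 higher member of 21 proteases and inhibitors (1.69-fold), and Myocd, a coactivator of smooth muscle genes, the 1 of 21 contractile genes (1.68-fold). Slc7a11, the cystine transporter gene, was the 1 higher member both of 28 ATF4 target and of 27 antioxidant genes (1.79-fold), and Trib3 and Aldh1l2 of the ATF4 list stood at -0.61 and -0.71. Of 166 markers of other cell types in 10 lists 1 was higher and 2 were lower, against 0.717% and 0.246% of all genes, and the medians of these lists lay between -0.27 and 0.22.

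**Figure D4:**
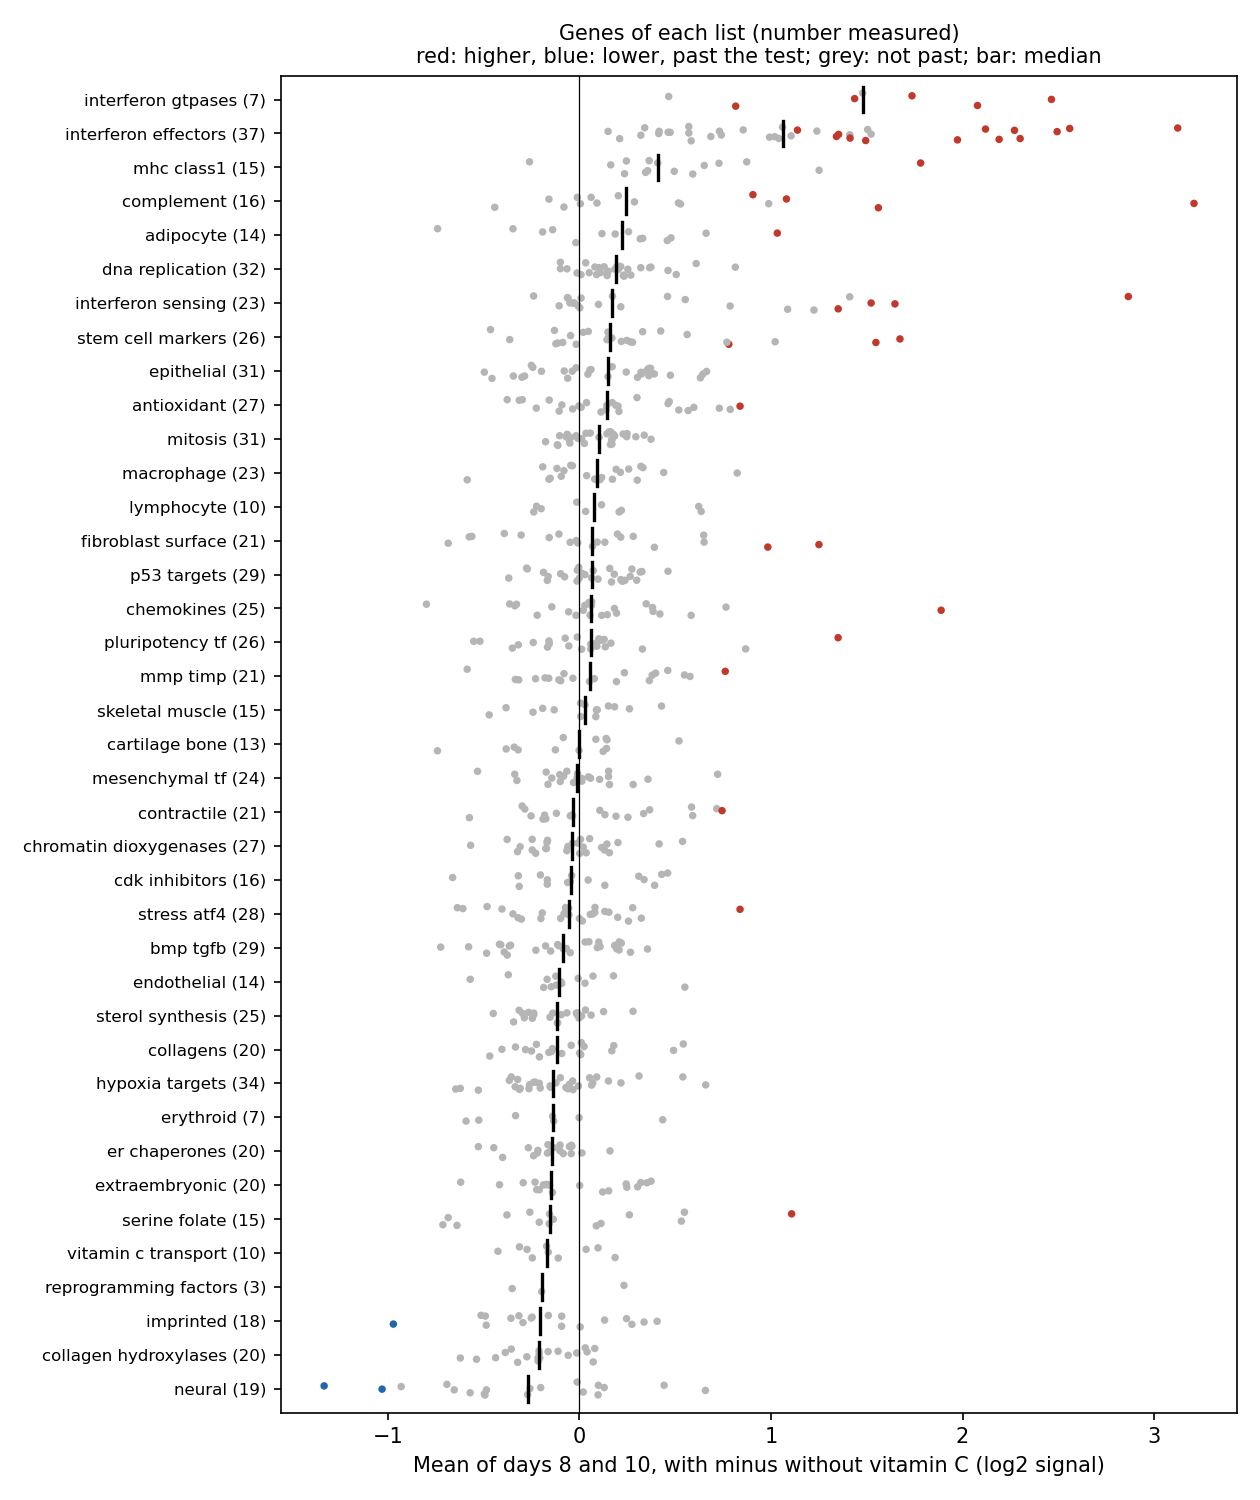
Each row is a gene list with its number of measured genes, and each point a gene, placed on the x axis by its mean vitamin C difference on days 8 and 10 (treated minus untreated, log2 signal). The medians (bars) of the interferon GTPases (1.48) and effectors (1.06) stand to the right of the other lists, and the neural list has the lowest median (-0.27).

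The late difference was also set against that of the middle days. On days 4 to 6 vitamin C raised 45 genes (0.226% of all) and lowered 15 (0.0752%). Of the 143 genes higher on days 8 and 10, 25 were also higher on days 4 to 6, which is 17.5% of the late and 55.6% of the middle genes. Of the 49 lower genes 5 were shared, 10.2% of the late and 33.3% of the middle genes. The 45 middle genes had a median of 1.09 on days 4 to 6 and 1.04 on days 8 and 10, and 42 kept their direction. The exceptions, named after their values were seen, were Sbspon, Vtcn1 and Trh, and the last of these stood at 1.27 on days 4 to 6 and -0.36 on days 8 and 10.

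Tested directly, 3 genes (0.015% of all) differed between days 8 and 10 and days 4 to 6, and 1766 had an unadjusted p under 0.05. Iigp1 differed by 2.02 ± 0.22 (SE) more on the late days (0.45 on days 4 to 6, adjusted p of the difference = 0.0264). Pramel27 differed by 2.09 (-0.58 on days 4 to 6, adjusted p = 0.0144) and Gpr50 by -2.14 (-0.84 on days 4 to 6, adjusted p = 0.0304). Although 135 of the 143 higher and 48 of the 49 lower genes had a larger difference on the late days than on days 4 to 6, the genes had been selected on the late days. On the earlier days, of which days 4 to 6 entered the selection only through the spread, medians of the higher genes were 0.21 and 0.32 on days 3 and 4, and 0.56 and 0.71 on days 5 and 6. Those of the lower genes were -0.02, -0.28, -0.36 and -0.46 on the same days in the same order.

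Between day 10 and day 8 the vitamin C difference itself changed in 0 genes past the adjusted threshold (0% of all; limma), and in 1352 genes at an unadjusted p under 0.05. Of the higher genes 95 of 143 had the larger difference on day 8, and of the lower genes 25 of 49. Over all genes the differences also spread wider on day 8 (standard deviation 0.39) than on day 10 (0.33). In untreated cells themselves, the signal of day 10 was above that of day 8 in 116 of the 143 higher genes. Among the 49 lower genes it was below that of day 8 in 39. The matching share over all genes is not given here, so nothing is read from these counts about the course of untreated cells.

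The late calls depend on both day pairs. Without day 8 the count was 11 (8 higher and 3 lower) and without day 10 it was 42. With the swing score as a covariate 8 genes passed, among them Kng2, Iigp1, Gpr50 and Csn1s1, whereas all 143 higher and 49 lower genes kept their direction, with medians of 1.18 and -1.07, against 1.21 and -1.02 without it.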

How the data were processed

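RNA of the 14 arrays was labelled from 100 ng of total RNA, per the labels' protocols. The log2 signals, 1 for each probe on each array, were deposited by the authors after processing with RMA and Partek, per the submitters' processing notes, which name no versions. That the scale is log2 was read from the values, which lie between 0.72 and 14.1. RMA compresses differences of weak genes, and the number of arrays limits the precision. Of 28853 probes, 21789 with exactly 1 gene symbol were used, and those with several (1621) or without a listed symbol (5443) were not. Names follow RefSeq (GRCm38.p6) by Entrez identifier, and each of the 19938 genes was represented by its brightest probe.

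Tests used limma 3.58.1 in R 4.3.3 on the 12 SKO arrays, blocked by day. Separate vitamin C coefficients were fitted for day 3, days 4 to 6 and days 8 and 10, which left 3 residual degrees of freedom. The difference between day 10 and day 8 had 2. P-values were adjusted by Benjamini-Hochberg over all genes (threshold 0.05), and the fits were tested on simulated data. Arrays of 1 day are paired by the labels. As a check, their deviations from the arm means correlated with r between 0.248 (day 6) and 0.677 (day 3).

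The members, the 39 gene lists (812 of 871 entries measured) and the naming rule were chosen with earlier results of these data known. By this rule the text names the 12 largest rises and 12 largest falls, up to 6 in each direction for differences between days, at most 4 called genes per list, and a fixed set. Of the called genes 142 fell outside it, and any of these named is said to be so. Alternatives were other normalizations, filters, variances, periods and covariates, and leaving out each day.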

Additional observations from a re-analysis of the deposited data

Results flagged for a closer look

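Ifnb1 had a vitamin C difference of -0.93 on day 8, which stood apart from its other 5 days (0.11 to 0.46). Its gap to the nearest day took 0.752 of the whole range, which is past Dixon's critical value for 6 values, a limit that chance passes in about 1 in 20 groups. The signals behind it are low.

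The vitamin C difference itself changed between the late days (8 and 10) and the middle days (4 to 6) in 3 genes by limma. It was larger on the late days by 2.02 in Iigp1 and by 2.09 in Pramel27, and more negative by -2.14 in Gpr50. Neither Iigp1, Pramel27 nor Gpr50 was past the test on days 4 to 6. Pramel27 had low signals, and its difference was 1.27 on day 3 before it turned negative on days 4 to 6.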

How the results depend on the processing

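The 192 late calls (143 higher, 49 lower) became 436 with only the 4 late arrays, 289 without the 6646 dimmest genes, 415 with an intensity trend, 8 with the swing score as a covariate and 5 with no replicate block, that is, without pairing the arrays by day. The dimmest genes included 35 of the 143 higher and 12 of the 49 lower genes. Leaving out 1 day pair gave between 11 (day 8) and 250 (day 4). All 192 were shared with the calls after median centring and 182 with those after quantile normalization. The 3 genes that differed between late and middle days became 1 with days 3 to 6 as 1 period, 0 with no replicate block, 1 after quantile normalization, 5 after median centring, 7 without the dimmest genes, 28 with an intensity trend and 0 with the score, and between 0 and 3 without 1 day pair. The filter for the dimmest genes (mean log2 signal under 4.54) removed Iigp1 (3.91) and Pramel27 (3.75), so its 7 genes do not include them. Day 10 against day 8 gave 0 genes, and between 0 and 6 without 1 day pair (6 without day 4). Of the 50 named genes past the test none changed direction under any of these settings. Most settings could not have changed it. The late difference is the mean of days 8 and 10, and each called gene had the same direction on both. Only the other normalizations, the mean over a gene's probes and the score could have turned it. The call was lost by 46 of the 50 with no replicate block, 45 with the score, 43 without day 8 and 31 without day 10. Among named genes not past the test, signs turned with days 8 or 10 left out. Without day 8, then without day 10, the differences were 0.0068 and -0.40 for Klf4, 0.29 and -0.11 for Esrrb, 0.23 and -0.11 for Zfp42, -0.39 and 0.26 for Cdkn2a, 0.41 and -0.14 for Cdkn2b, -0.54 and 0.20 for Tet2, -0.17 and 0.037 for Kdm2b, and 0.46 and -0.93 for Ifnb1. With the score they turned for Sall4 (-0.035), Kdm2b (0.036) and Ifnb1 (0.20). With day 8 or day 10 left out, the late difference is that of the remaining late day alone. A sign therefore turns where these days differ in sign. Fewer arrays also leave fewer degrees of freedom, and otherwise the cause of the changes was not tested.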
